A study of Mus musculus with 12 samples.

Results

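The genes described here are 10 that skeletal muscle uses to release, store, buffer and pump calcium, or that mark its fast fibres, followed in mouse skin and in keratinocytes grown from skin. They were Ryr1, Casq1, Casq2, Atp2a1, Atp2a2, Sln, Pvalb, Ckm, Actn2 and Actn3. Every probe set whose gene symbol in the platform annotation was 1 of these was taken, which gave 10 of the 12393 genes with a symbol and 14 of the 22690 probe sets on the array. Atp2a2 had 4 probe sets, Sln had 2 and each of the other 8 genes had 1. All 14 were measured and tested, since no filter on low values was applied.

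The 12 Affymetrix arrays, 1 per RNA sample, fell into 3 groups. Skin of mice aged 30 days gave 5 arrays, and these mice mixed the C57, DBA and FVB strains. Newborn skin of the FVB strain gave 2 arrays. Primary keratinocyte cultures from newborn mice, which served as the baseline, gave 5 arrays, of which replicates 1 and 2 were of the mixed background and replicates 3, 4 and 5 were FVB. Each culture pooled cells of 5 mice, grew without passage for up to 3 days, and its medium was low in calcium. No genetic alteration is given for any group. Strain and age coincide within skin and cannot be told apart there. Whether each skin sample was a different animal is not given, and the p-values therefore cover only the spread among these samples, which may be technical.

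A muscle fibre contracts when the ryanodine receptor Ryr1 lets calcium out of the sarcoplasmic reticulum, where calsequestrins (Casq1 and Casq2) hold it. It relaxes as parvalbumin (Pvalb) binds the calcium and the SERCA pumps (Atp2a1 and Atp2a2) return it to the store, with sarcolipin (Sln) restraining the pumps. Fast fibres use mainly Atp2a1, Casq1, Pvalb and the Z-disc protein Actn3, whereas slow fibres use Atp2a2 and more Casq2. Mouse skin holds a sheet of striated muscle, the panniculus carnosus, and the muscle of newborn rodents is still exchanging its developmental contractile proteins for adult ones.

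The RefSeq promoter table (GRCm38.p6) held sequences for 7 of the 10 genes, 8 sequences in all. The 250 bases upstream of the start site are shown for 4 genes on which the results turn: the calsequestrin pair, whose members differed in opposite directions between the ages, and the pump and the buffer of fast fibres, both higher in 30-day than in newborn skin. Capitals mark CANNTG, the E-box core that the MyoD family of muscle regulators recognises. The sequences are Casq1 at chr1:172219896-172220145 (minus strand), Casq2 at chr3:102086165-102086414 (plus strand), Atp2a1 at chr7:126463074-126463323 (minus strand) and Pvalb, upstream of 1 of its start sites, at chr15:78206401-78206650 (minus strand).
Casq1: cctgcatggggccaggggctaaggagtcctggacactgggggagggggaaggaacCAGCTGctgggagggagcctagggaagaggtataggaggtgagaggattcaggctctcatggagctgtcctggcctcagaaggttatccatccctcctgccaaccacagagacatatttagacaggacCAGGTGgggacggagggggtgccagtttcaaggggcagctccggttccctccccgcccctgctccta
Casq2: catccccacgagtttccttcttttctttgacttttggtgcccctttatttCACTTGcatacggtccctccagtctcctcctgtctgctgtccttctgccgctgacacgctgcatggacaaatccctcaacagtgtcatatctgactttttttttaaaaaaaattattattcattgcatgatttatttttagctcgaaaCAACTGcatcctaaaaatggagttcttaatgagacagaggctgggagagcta
Atp2a1: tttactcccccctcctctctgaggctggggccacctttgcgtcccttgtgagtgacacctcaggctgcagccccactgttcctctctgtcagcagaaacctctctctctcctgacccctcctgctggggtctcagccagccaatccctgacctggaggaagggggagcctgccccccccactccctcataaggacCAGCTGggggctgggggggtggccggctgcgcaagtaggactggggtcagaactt
Pvalb: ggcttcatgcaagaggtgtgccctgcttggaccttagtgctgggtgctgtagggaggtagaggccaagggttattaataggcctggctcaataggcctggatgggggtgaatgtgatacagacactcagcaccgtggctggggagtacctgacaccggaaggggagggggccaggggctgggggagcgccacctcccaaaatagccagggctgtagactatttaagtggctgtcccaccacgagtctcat
Read on both strands, CANNTG was found in 6 of the 8 sequences of these genes and in 66.2% of the 32851 promoters of the table. CAGCTG, 1 form of it, was found in 3 of the 8, against 13% of all promoters. It began at position -195 from the start site in Casq1, at -55 in Atp2a1 and at -249 in Ckm. The letters TATAAA were found in 0 of the 8 sequences and in 12.4% of all promoters. These matches describe letters and say nothing of a factor's binding.

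All values are log2 intensities summarised per probe set. Array medians lay between 5.86 and 6.01. One 30-day array, replicate 1, stood apart in the actin controls, with a 3' minus 5' difference of 1.74. This difference was 0.67 to 0.82 in replicates 2 to 5, 0.99 and 1.14 in newborn skin and 0.21 to 0.74 in culture. Some replicates resembled each other closely, with correlations over all probe sets of at least 0.99: replicates 2 and 3 and replicates 4 and 5 of 30-day skin, both newborn skin arrays, and replicates 1 and 2 and replicates 3 and 4 of culture. The 13 measured genes of a shared sarcomere list, which striated fibres of all types use, averaged 7.95 to 8.25 in 30-day skin, 7.88 to 7.97 in newborn skin and 5.67 to 5.91 in culture. The group means of 9 of the 14 probe sets lay below the median of every array in culture, all but those of Atp2a2 and Casq2. With no detection calls, such values are not shown to be above background, and the excess of a brighter value over them is read as a lower bound, with no fold given. In such bulk samples, fewer cells of a type and less RNA per cell cannot be told apart.

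Between 30-day and newborn skin, the genes did not all differ in one direction. Pvalb, Actn3, Atp2a1, Casq1 and 1 of the Atp2a2 probe sets were higher at 30 days, whereas Sln, Casq2 and Actn2 were lower. Ryr1 and Ckm did not pass the test. In counts, 5 of 14 probe sets were higher and 3 were lower at an adjusted p under 0.05 (limma, Benjamini-Hochberg over 22626 probe sets), where 4.75% and 7.36% of all tested probe sets were called in these directions. The arrays of the groups did not overlap for the same counts, 5 higher and 3 lower, against 14.6% and 17.6% of all probe sets. The median difference over the 14 probe sets was 0.11, against 0.004 over all probe sets. The members, and the gene lists used below, were chosen with earlier results of these data known. Their counts beside the shares of all probe sets or genes are therefore descriptions and not tests.

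**Figure D1:**
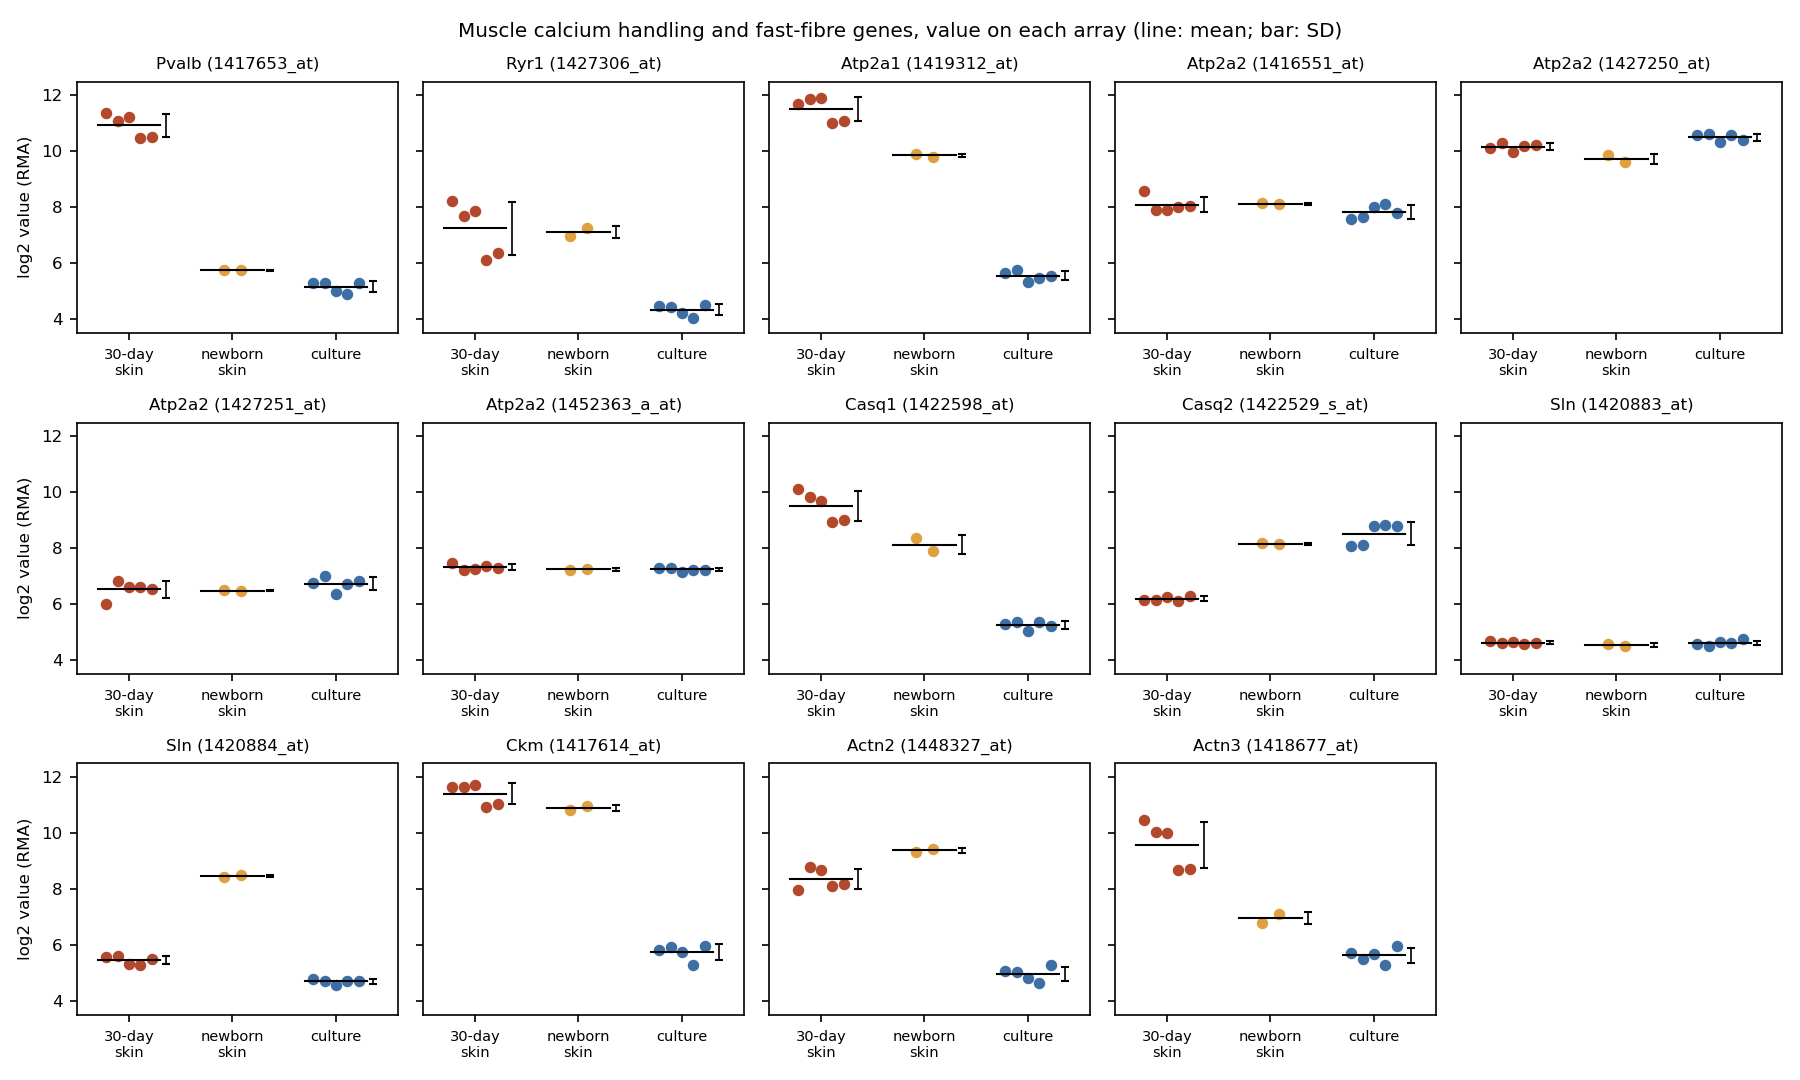
The log2 intensity (vertical axis) of each of the 14 probe sets is plotted for every array of 30-day skin (5 arrays), newborn skin (2) and culture (5), with a line at each group's mean and a bar of 1 SD on either side of it. Pvalb lies between 10.46 and 11.36 in 30-day skin and below 5.8 in all other arrays, while one Sln probe set is high in newborn skin alone.

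Ryr1, the calcium release channel of the sarcoplasmic reticulum, gave 8.22, 7.68, 7.87, 6.10 and 6.37 in the 5 arrays of 30-day skin, 6.96 and 7.27 in newborn skin, and 4.47, 4.43, 4.20, 4.04 and 4.49 in culture. Replicates 1 to 3 of 30-day skin lay above newborn skin and replicates 4 and 5 below it, so the skin groups overlapped, and both lay clear of culture. The age difference was 0.13 ± 0.45 (SE) with a 95% interval of -0.85 to 1.11 and an adjusted p of 0.91 by limma. Against culture, Ryr1 was higher by 2.92 ± 0.34 in 30-day skin (adjusted p = 1.05e-05) and by 2.79 ± 0.45 in newborn skin (adjusted p = 2.99e-04).

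Casq1, the calsequestrin of fast fibres, gave 10.12, 9.83, 9.70, 8.92 and 9.01 in 30-day skin, against 8.36 and 7.90 in newborn skin and 5.30, 5.36, 5.04, 5.38 and 5.22 in culture. The 3 groups did not overlap, with 30-day skin highest and culture lowest. The age difference was 1.38 ± 0.27 (SE), a 2.61-fold higher level at 30 days, with an adjusted p of 0.00462 by limma. It lost the call without replicate 2 of newborn skin (1.15, adjusted p = 0.112), with strain as a covariate (1.26, adjusted p = 0.0719) and with the close arrays averaged (1.48, adjusted p = 0.141). Casq1 exceeded culture by 4.26 ± 0.20 in 30-day skin (adjusted p = 1.40e-09) and by 2.87 ± 0.27 in newborn skin (adjusted p = 2.13e-06).

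Casq2, the calsequestrin of heart and slow fibres, ran the other way. It gave 6.14, 6.14, 6.27, 6.10 and 6.31 in 30-day skin, against 8.18 and 8.14 in newborn skin and 8.08, 8.11, 8.80, 8.84 and 8.81 in culture. All 30-day arrays lay below every other array, and newborn skin fell within the range of the cultures. Casq2 was lower in 30-day skin by 3.90-fold against newborn skin, a log2 difference of -1.96 ± 0.20 (SE; adjusted p = 3.39e-05 by limma), and by 5.04-fold against culture (-2.33 ± 0.15; adjusted p = 3.39e-08). The difference between newborn skin and culture was -0.37 ± 0.20 (adjusted p = 0.198). Within culture, the mixed-background replicates gave 8.08 and 8.11 and the FVB replicates 8.80 to 8.84. With strain as a covariate, which takes its strain difference from the cultures, the newborn difference became -0.66 with an adjusted p of 1.46e-04 and the age difference became -1.24, still called. In culture this probe set stood above 85.0% to 90.8% of probe sets of its array, while the shared sarcomere list was at its lowest there. Its suffix (s_at) marks a probe set that can match more than 1 transcript, and the part of other transcripts in its signal was not tested.

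Atp2a1 encodes SERCA1, the calcium pump of fast fibres. It gave 11.69, 11.87, 11.92, 11.00 and 11.09 in 30-day skin, against 9.90 and 9.81 in newborn skin and 5.65, 5.74, 5.33, 5.48 and 5.55 in culture. No array of 1 group reached into another. At 30 days the level was 3.16-fold that of newborn skin (1.66 ± 0.23 SE, adjusted p = 3.58e-04 by limma). Atp2a1 exceeded culture by 5.96 ± 0.17 in 30-day skin (adjusted p = 8.27e-12) and by 4.30 ± 0.23 in newborn skin (adjusted p = 7.82e-09). The age call was lost with the close arrays averaged (1.69, adjusted p = 0.0507).

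Atp2a2 encodes SERCA2, the pump of slow fibres and heart that most other cells, keratinocytes among them, also use. Its brightest probe set (1427250_at) gave 10.12, 10.30, 9.97, 10.21 and 10.24 in 30-day skin, against 9.86 and 9.61 in newborn skin and 10.60, 10.62, 10.33, 10.57 and 10.42 in culture. Culture was highest and newborn skin lowest, and the groups did not overlap, though they lay within about 1 log2 unit of each other. The differences by limma were 0.43 ± 0.12 for 30-day against newborn skin (adjusted p = 0.0333), -0.34 ± 0.09 for 30-day skin against culture (adjusted p = 0.0076) and -0.77 ± 0.12 for newborn skin against culture (adjusted p = 2.14e-04). The age difference was the least secure of the calls: it missed the threshold in 10 of 24 alternative settings, where its adjusted p reached 0.428.

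The other 3 Atp2a2 probe sets passed the test in no comparison as fitted here. One of them, 1416551_at, passed against culture in some alternative settings: in 30-day skin after a new quantile normalisation (0.40, adjusted p = 0.0259) and with strain as a covariate (0.48, adjusted p = 0.0309), against 0.26 (adjusted p = 0.147), and in newborn skin with array weights (0.36, adjusted p = 0.0449), against 0.29 (adjusted p = 0.265). Their age differences were -0.03 (1416551_at, adjusted p = 0.953), 0.05 (1427251_at, adjusted p = 0.93) and 0.08 (1452363_a_at, adjusted p = 0.671) by limma, each with groups that overlapped. The 95% intervals ran from -0.42 to 0.37, from -0.37 to 0.46 and from -0.12 to 0.29. Each overlapped the interval of 1427250_at, 0.17 to 0.69, and the difference between probe sets was not tested.

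Sln encodes sarcolipin, a small membrane peptide that inhibits the SERCA pumps. Its probe set 1420884_at gave 5.57, 5.61, 5.31, 5.30 and 5.50 in 30-day skin, against 8.44 and 8.50 in newborn skin and 4.80, 4.71, 4.57, 4.72 and 4.71 in culture. Newborn skin was far above both other groups, and 30-day skin still lay above every culture. Sln was lower at 30 days than in newborn skin, by a log2 difference of -3.02 ± 0.11 (SE, adjusted p = 9.89e-10 by limma), and its 30-day values lay below the array medians. It was above culture by 0.76 ± 0.08 in 30-day skin (adjusted p = 5.41e-06) and by 3.77 ± 0.11 in newborn skin (adjusted p = 2.36e-11). The second probe set, 1420883_at, lay between 4.49 and 4.74 in all 12 arrays, above only 12.6% to 18.1% of the probe sets of its array, and gave an age difference of 0.08 with an adjusted p of 0.648. The 2 Sln probe sets thus disagreed, and the statements on Sln rest on 1420884_at.

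Pvalb, the soluble calcium buffer of the fastest mouse fibres, had the largest measured age difference of the 14 probe sets. It gave 11.36, 11.09, 11.22, 10.46 and 10.51 in 30-day skin, against 5.76 and 5.74 in newborn skin and 5.29, 5.30, 5.01, 4.89 and 5.29 in culture. The 30-day arrays stood far above all others, and newborn skin lay slightly above culture without overlap. The level at 30 days was above that of newborn skin by 5.18 ± 0.22 (SE, adjusted p = 7.35e-09 by limma) and above that of culture by 5.77 ± 0.17 (adjusted p = 1.04e-11). Newborn skin and culture lay below the array medians, above 44.7% to 45.3% and 24.9% to 33.3% of the probe sets of their arrays, so both differences are read as lower bounds. Newborn skin exceeded culture by 0.59 ± 0.22, which missed the threshold (adjusted p = 0.0593) and passed it in 8 of 23 alternative settings.

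Ckm encodes the muscle creatine kinase that regenerates ATP near the pumps and the contractile filaments. It gave 11.66, 11.65, 11.74, 10.95 and 11.06 in 30-day skin, against 10.84 and 10.98 in newborn skin and 5.84, 5.95, 5.74, 5.29 and 5.97 in culture. Replicate 4 of 30-day skin fell between the newborn arrays, so the ages overlapped, and both lay more than 4 log2 units above every culture. The age difference was 0.50 ± 0.23 (SE; adjusted p = 0.191 by limma). Ckm exceeded culture by 5.66 ± 0.17 in 30-day skin (adjusted p = 1.60e-11) and by 5.15 ± 0.23 in newborn skin (adjusted p = 1.50e-09).

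Actn3 and Actn2 encode the alpha-actinins that anchor actin filaments at the Z-disc, Actn3 in fast fibres and Actn2 in all striated fibres. Actn3 gave 10.48, 10.06, 10.01, 8.68 and 8.73 in 30-day skin, against 6.80 and 7.11 in newborn skin and 5.70, 5.51, 5.69, 5.29 and 5.97 in culture. Each group kept to its own range, with 30-day skin on top. Its age difference was 2.63 ± 0.41 (SE), 6.21-fold, with an adjusted p of 8.93e-04 by limma, and lost the call with the close arrays averaged (2.78, adjusted p = 0.0802). Actn3 exceeded culture by 3.96 ± 0.31 in 30-day skin (adjusted p = 1.88e-07) and by 1.33 ± 0.41 in newborn skin (adjusted p = 0.0225). The newborn call did not hold without newborn replicate 1 (adjusted p = 0.0815) or replicate 2 (adjusted p = 0.17).

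Actn2 was highest in newborn skin. It gave 7.98, 8.78, 8.69, 8.13 and 8.18 in 30-day skin, against 9.32 and 9.45 in newborn skin and 5.06, 5.05, 4.83, 4.65 and 5.29 in culture. The ranges of the 3 groups were separate. Actn2 was 2.05-fold lower at 30 days (-1.04 ± 0.22 SE, adjusted p = 0.00672 by limma), a call that was lost without newborn replicate 1 (adjusted p = 0.0523), without newborn replicate 2 (adjusted p = 0.102) and with the close arrays averaged (adjusted p = 0.19). Above culture, Actn2 stood 3.38 ± 0.16 higher in 30-day skin (adjusted p = 1.39e-09) and 4.41 ± 0.22 higher in newborn skin (adjusted p = 3.70e-09).

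**Figure D2:**
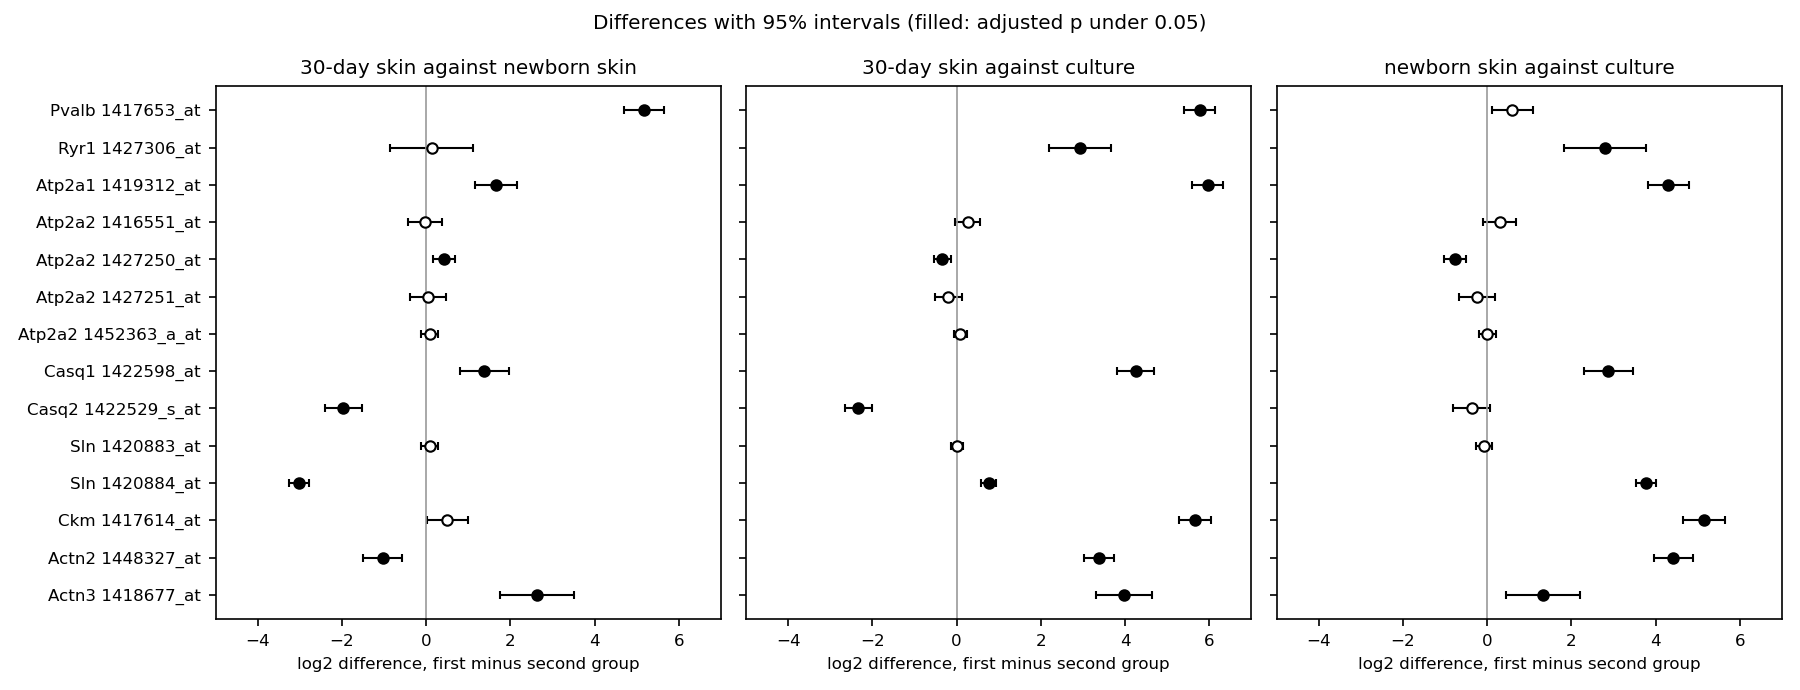
Log2 differences of the 14 probe sets are drawn with 95% intervals from the limma fit for 30-day against newborn skin, 30-day skin against culture and newborn skin against culture, filled where the adjusted p was under 0.05. For age, Pvalb at 5.18 and Sln (1420884_at) at -3.02 mark the ends, while Ryr1, Sln (1420883_at) and 3 of the Atp2a2 probe sets have intervals across 0.

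Against culture, 8 of the 14 probe sets were higher and 2 were lower in 30-day skin, where 18.2% and 25.1% of all probe sets were called higher and lower by limma. The same 8 and 2 had arrays that did not overlap, against 13.9% and 18.6% of all probe sets. Those higher were Pvalb, Ryr1, Atp2a1, Casq1, Sln (1420884_at), Ckm, Actn2 and Actn3, and those lower were Casq2 and Atp2a2 (1427250_at). In newborn skin 7 were higher and 1 was lower, where 14.7% and 17.6% of all probe sets were called. Arrays did not overlap for 8 that were higher, Pvalb being the addition, and 1 that was lower, against 20% and 25.5% of all probe sets. Both skin groups share the same cultures, so their values against culture are not independent of each other.

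The 30-day arrays differed among themselves. Replicates 4 and 5 were the 2 lowest of the 5 arrays for 7 of the 14 probe sets, those of Pvalb, Ryr1, Atp2a1, Casq1, Ckm, Actn3 and Sln (1420883_at). The share of all probe sets with this order was not counted, so 7 of 14 has no background to be set against. For Sln (1420883_at) the gap was slight, at most 4.597 in replicates 4 and 5 and at least 4.604 in replicates 1 to 3. Replicates 4 and 5 were also lowest for the shared sarcomere list, which averaged 7.95 and 7.96 in them and 8.09, 8.25 and 8.24 in replicates 1 to 3. Replicate 1, with the wide actin gap, was the highest of its group for Ryr1, Casq1, Pvalb, Actn3 and Sln (1420883_at) and the lowest for Actn2. Among the Atp2a2 probe sets it was the highest for 1416551_at and 1452363_a_at and the lowest for 1427251_at. Without replicate 1, the counts of called probe sets between the ages were again 5 higher and 3 lower, and the age differences were 5.07 for Pvalb, 2.41 for Actn3, 1.61 for Atp2a1, 1.23 for Casq1, -0.94 for Actn2, -1.95 for Casq2 and -3.05 for Sln. With each skin array centred on the shared sarcomere genes, these 7 differences ran from 5.0 for Pvalb to -3.19 for Sln and all were called, whereas that of Atp2a2 fell to 0.26 with an adjusted p of 0.326. That centring moved the median age difference of all probe sets to -0.17 and the calls over all of them to 528 higher and 3151 lower, against 1074 and 1666 without it.

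Within each array, the fast member of a pair was set against its partner, which removes anything that scales both genes alike in that array. A change in such a difference shows unequal change of the 2 genes and does not compare their levels, since each probe set has its own scale. Casq2 and Atp2a2 (1427250_at) averaged 8.53 and 10.51 in culture, above their means in both skin groups. A different share of muscle in a sample therefore need not scale both genes of the calsequestrin and pump pairs alike. Its part in the shifts was not tested. Actn3 minus Actn2 was 2.50, 1.27, 1.32, 0.55 and 0.55 in 30-day skin, against -2.52 and -2.34 in newborn skin, and averaged 0.65 ± 0.14 (SD, n = 5) in culture. The mean was 1.24 ± 0.80 (SD, n = 5) at 30 days and -2.43 ± 0.12 (SD, n = 2) in newborn skin, a shift of 3.67. All 30-day arrays lay above both newborn arrays. In culture the values of both genes lay near or below the array medians.

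For the calsequestrins, Casq1 minus Casq2 was 3.98, 3.69, 3.43, 2.82 and 2.70 in 30-day skin, against 0.19 and -0.24 in newborn skin, and averaged -3.27 ± 0.47 (SD, n = 5) in culture. Its shift between the ages was 3.35, with all 30-day arrays above both newborn arrays. For the pumps, Atp2a1 minus Atp2a2 (1427250_at) was 1.57, 1.57, 1.95, 0.79 and 0.85 in 30-day skin, against 0.04 and 0.20 in newborn skin, and averaged -4.96 ± 0.09 (SD, n = 5) in culture. Its shift was 1.22, and 1.52 when the 4 Atp2a2 probe sets were averaged. Each of the 3 pairs gave p = 0.0952 in an exact two-sided permutation test, also after adjustment over the 3 pairs. That is the smallest p that 5 arrays against 2 allow over 21 splits, so 0.05 could not be reached. The shift had the same sign in all 3 pairs, towards Actn3, Casq1 and Atp2a1 at 30 days. That sign follows from the age differences of the single genes given above and is not a separate result.

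**Figure D3:**
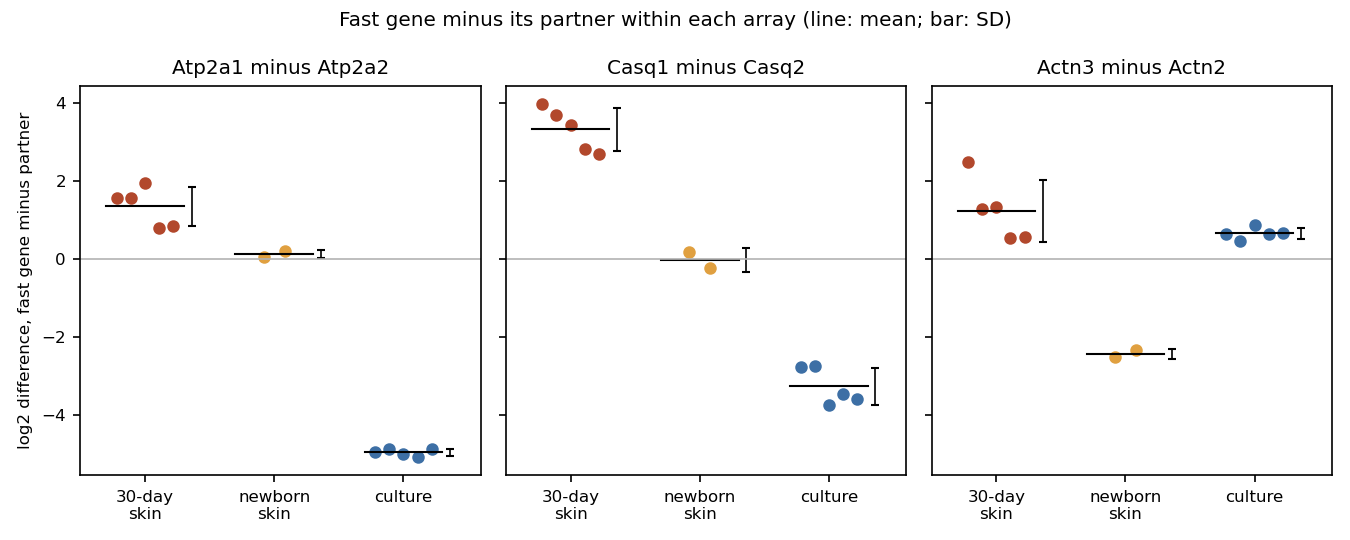
The within-array difference of the fast gene minus its partner (log2, vertical axis) is plotted for each array of 30-day skin, newborn skin and culture, with a line at the group mean and a bar of 1 SD on either side of it. In all 3 pairs the 5 arrays of 30-day skin lie above the 2 of newborn skin, by 1.22 to 3.67 between the means.

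Other genes of the same machinery were counted from lists, with 1 probe set per gene, the one with the highest mean. Between the ages, 5.46% of the 12393 genes were higher and 8.91% lower, and their median difference was -0.01. Of 24 measured genes of the triad (the junction where the surface membrane meets the calcium store) and of calcium handling, 3 were higher, 4 were lower and 17 did not pass, with a median of 0.13. S100a1, a calcium sensor that binds Ryr1, was 1.04 ± 0.14 higher at 30 days (SE; adjusted p = 3.16e-04 by limma). Trdn, the triadin that tethers calsequestrin to Ryr1, was 0.97 ± 0.24 higher (adjusted p = 0.0193), and Cacna1s, the voltage sensor facing Ryr1, 0.39 ± 0.11 higher (adjusted p = 0.0329). Cacna1s averaged 5.72 in newborn skin, below the array medians, so its difference is read as a lower bound. Lower at 30 days were Cav3, the muscle caveolin (-0.87 ± 0.12, adjusted p = 4.78e-04), Bin1, which shapes the T-tubule membrane (-0.81 ± 0.19, adjusted p = 0.0136), and Cacng1, a subunit of the voltage sensor (-0.71 ± 0.17, adjusted p = 0.0159). Dysf, the membrane repair protein dysferlin, was the 4th. Its means, 5.15 at 30 days and 5.57 in newborn skin, lay below the array medians. Against culture 15 of the 24 were higher and 0 lower in 30-day skin, with 21.4% and 26.1% of all genes called. In newborn skin the counts were 11 and 0, with 18.1% and 17.3% of all genes called.

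Among 21 measured genes of fast-fibre contraction and energy supply, 6 were higher at 30 days, 1 was lower and 14 did not pass, with a median of 0.16. The fast light chains Mylpf (-0.32) and Myl1 (0.06) were among those not called. So were the fast troponins Tnnt3 (0.12), Tnni2 (-0.01) and Tnnc2 (0.08). Myh4, the myosin heavy chain of the fastest fibres, averaged 10.75 ± 0.33 (SD, n = 5) in 30-day skin and 4.49 ± 0.04 (SD, n = 2) in newborn skin, a difference of 6.25 ± 0.19 (SE; adjusted p = 1.58e-10 by limma). The other fast myosins were higher too, Myh2 by 3.09 ± 0.25 (adjusted p = 3.67e-06) and Myh1 by 1.93 ± 0.31 (adjusted p = 0.00114). Fbp2, the muscle fructose bisphosphatase, was lower (-0.96 ± 0.15, adjusted p = 9.48e-04). Of 16 slow-fibre genes, 2 were higher and 6 lower, with a median of -0.15. Myoz2, a Z-disc protein of slow fibres and heart (-2.31 ± 0.25), Tnnc1, the slow troponin C (-1.99 ± 0.10), and Tnnt1, the slow troponin T (-1.45 ± 0.16), were lower, whereas the oxygen store Mb (2.57 ± 0.29) and the mitochondrial creatine kinase Ckmt2 (0.91 ± 0.21) were higher. The slow list therefore held genes on both sides. Tnnc1 (5.24) and Tnnt1 (5.61) at 30 days and Mb (5.68) in newborn skin averaged below the array medians. The sizes of their differences are read as lower bounds.

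Of 18 developmental muscle genes, 0 were higher and 10 lower at 30 days, with a median of -0.52. Myh8, the perinatal myosin heavy chain, averaged 4.44 ± 0.08 (SD, n = 5) in 30-day skin and 10.86 ± 0.14 (SD, n = 2) in newborn skin, a difference of -6.42 ± 0.11 (SE; adjusted p = 5.83e-13 by limma). Myh3, the embryonic form, differed by -4.63 ± 0.10 and Actc1, the cardiac actin that developing skeletal muscle also makes, by -3.17 ± 0.41. At 30 days the means of Myh8 and Myh3 (4.22) lay below the array medians, so the size of both differences is read as a lower bound. The perinatal and embryonic myosins thus shared the direction of Sln, Casq2 and Actn2, and the fast myosins that of Pvalb and Actn3.

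Of the 13 shared sarcomere genes, 2 were higher and 1 was lower at 30 days, with a median of 0.10. Acta1, the skeletal actin, differed by -0.13 ± 0.30 (adjusted p = 0.852 by limma) and Ttn, titin, by 0.10 ± 0.17 (adjusted p = 0.79). Tcap, the titin cap (1.44 ± 0.23), and Cryab, a small heat shock protein (0.76 ± 0.16), were higher, and Des, desmin (-0.60 ± 0.18), which the developmental list also holds, was lower. Against culture 11 of the 13 were higher and 1 was lower in 30-day skin, with 21.4% and 26.1% of all genes called. In newborn skin the counts were 11 and 2, with 18.1% and 17.3% of all genes called. A further 12 listed genes were not analysed here, so these counts cover 13 of 25. When close arrays were averaged, the age counts became 0 higher and 0 lower for the triad list, 2 and 0 for the fast list, 1 and 4 for the slow list and 0 and 4 for the developmental list. With strain as a covariate they were 1 and 2, 3 and 0, 1 and 5, and 0 and 10.

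**Figure D4:**
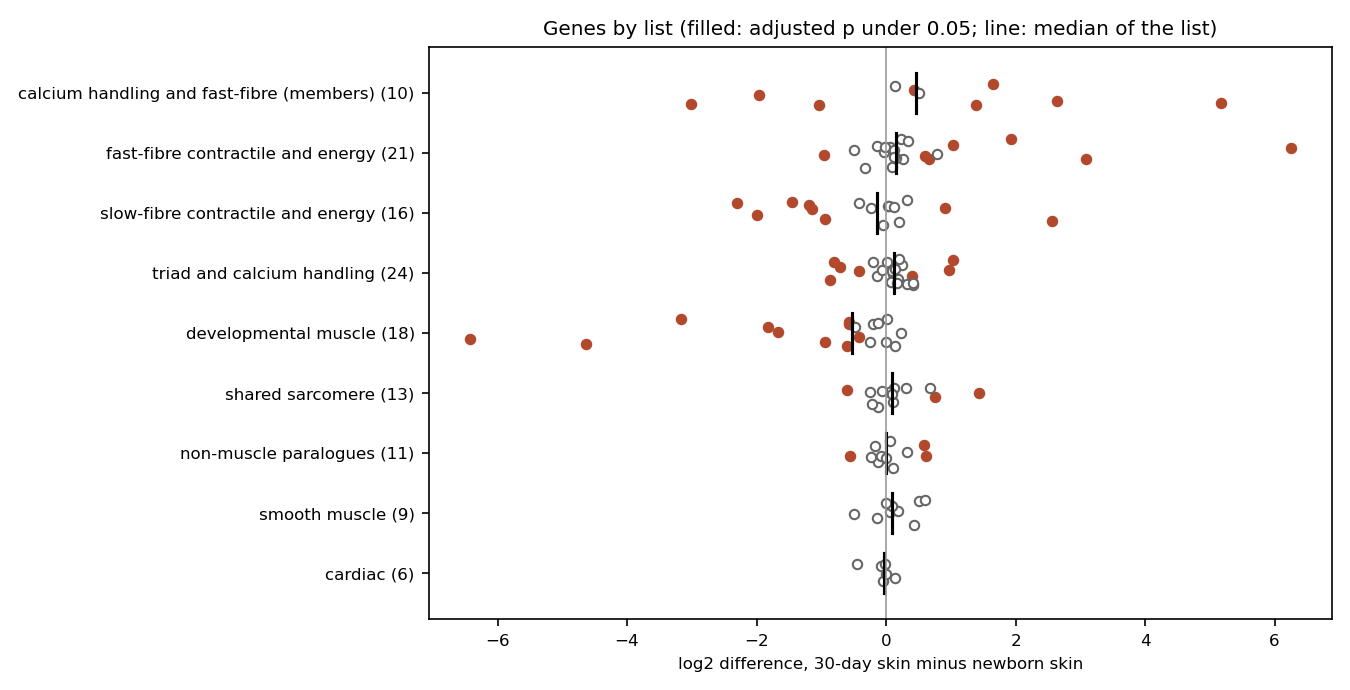
Each point is the log2 difference of 1 gene between 30-day and newborn skin (horizontal axis), filled where its adjusted p was under 0.05, with the number of measured genes of each list in brackets and a line at each list's median. The developmental list has no called gene above 0, and the fast-fibre list reaches 6.25 with Myh4.

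Several members have relatives that non-muscle cells use, and 11 such genes were measured. Between the ages 2 were higher, Actn4 (0.61 ± 0.16) and Actn1 (0.59 ± 0.12), the alpha-actinins of non-muscle cells, and 1 was lower, Ckb, the brain-type creatine kinase (-0.55 ± 0.13). Atp2a3, the SERCA3 pump, differed by 0.11 ± 0.12 (adjusted p = 0.661 by limma). Actn1 was lower than culture by a log2 difference of -1.73 ± 0.09 in 30-day skin and -2.31 ± 0.12 in newborn skin, in the direction opposite to Actn2 and Actn3. Ckb exceeded culture by 1.55 ± 0.10 in 30-day skin and 2.10 ± 0.13 in newborn skin, in the same direction as Ckm.

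Markers of other cells were counted beside the members. Between the ages 5.46% of all genes were called higher and 8.91% lower. Of 9 smooth muscle genes 0 were called between the ages by limma, and the list averaged 7.03 to 7.14 in 30-day skin, 6.94 to 6.95 in newborn skin and 6.27 to 6.82 in culture. Of 6 cardiac genes 0 were called between the ages. Against culture 2 of the 6 were lower in both skin groups. Of all genes, 26.1% were lower than culture in 30-day skin and 17.3% in newborn skin. The 2 were Nppb and Myl7. Nppb, a natriuretic peptide, averaged 5.33 in 30-day skin, 5.38 in newborn skin and 7.22 in culture. Myl7, an atrial myosin light chain, averaged 4.56, 5.01 and 7.03. Casq2 was lower than culture in 30-day skin too, while the other 4 cardiac genes, Myh6, Nppa, Tnni3 and Ryr2, were not called. Adipocyte genes gave 4 of 8 lower at 30 days (list means 8.15 to 8.59 in 30-day skin, 8.97 to 8.99 in newborn skin and 4.63 to 4.92 in culture), fibroblast genes 2 of 8 lower (10.48 to 11.15, 10.98 in both newborn arrays, and 5.36 to 6.01 in culture), and nerve genes 1 of 6 lower (5.99 to 6.13, 6.22 to 6.35 and 6.07 to 6.35). Keratinocyte genes gave 1 of 9 higher and 3 lower, with list means of 10.35 to 10.53 in 30-day skin, 10.88 in newborn skin and 9.96 to 10.58 in culture. With strain as a covariate the age counts were 0 higher and 3 lower for smooth muscle, 0 and 4 for fibroblasts (median -0.91, against -0.04), 1 and 0 for keratinocytes, and as before for the adipocyte, nerve and cardiac lists. Without replicate 1 of 30-day skin they were 1 and 0 for smooth muscle and 0 and 3 for fibroblasts, and with the close arrays averaged 1 adipocyte gene was lower and 0 genes of the other 5 lists were called. RMA gives no value of 0, so no marker was at 0. The part of these cells in the members' differences was not tested.

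The genes whose profile over the 12 arrays came nearest to each member, by the root mean square difference of values centred on their own mean, were searched among the 12393 genes. For Pvalb the nearest was Myh4 at 0.48 log2 units, followed by the chemokine Ccl8 (0.62) and the antigen-presenting H2-Aa (0.66). For Ckm they were Col1a1 (0.32), a collagen, and the muscle genes Tnnt3 (0.32) and Acta1 (0.37), and for Ryr1 Thy1 (0.29), the Z-disc gene Ldb3 (0.33) and Pde4dip (0.37). Atp2a1 was nearest to the hair follicle keratin Krt75, to Ckm and to trichohyalin (Tchh), each at 0.43. Genes of the hair follicle were thus as near to Atp2a1 as Ckm was.

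The nearest genes of Casq1 were Igfbp5 (0.32), Hp (0.34) and Scara5 (0.35), and those of Actn3 were Thrsp (0.32), Cd74 (0.47) and Retnla (0.48). Actn2 was nearest to the water channel Aqp1 (0.20), Wfdc21 (0.29) and the cornified envelope gene Lor (0.32). Sln was nearest to Egfl6 (0.23), Twist2 (0.30) and Tenm3 (0.32). Casq2, the only member lower in 30-day skin than in both other groups, was nearest to Col7a1 (0.31), the anchoring fibril collagen that keratinocytes make, Lxn (0.32) and Igf2bp3 (0.36). Atp2a2 (1427250_at) was nearest to Slc37a3 (0.10), Wsb2 (0.10) and Cstf3 (0.12). Such a distance depends on how widely a gene varies, so distances are not compared between members. Group means ran from 9.73 to 10.51 for Atp2a2 (1427250_at) and from 5.16 to 10.93 for Pvalb.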

How the data were processed

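The deposited values of 12 arrays are on a log2 scale and were made by RMA, per the submitters' processing notes, with a version not given in the sources used here. This method subtracts background, forces the arrays to a common distribution and combines the probes of each set; a common distribution assumes that skin and culture RNA are distributed alike. Of 22690 probe sets, 64 controls were left out. In the platform annotation 20380 probe sets had 1 gene symbol, 691 had more than 1 and 1555 lacked one. Neither counts nor detection calls come with such values, and precision is set by how many arrays there were.

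One fit of the 12 arrays, with group means, was made in limma 3.58.1 under R 4.3.3 (two-sided, Benjamini-Hochberg over 22626 probe sets, threshold 0.05). It was tested on simulated arrays with independent noise, a setting that does not cover the close resemblance of some replicates. Gene lists used the probe set with the highest mean of each of 12393 genes, from the same fit. Errors of differences are standard errors and those of group means are SDs. Partner differences were tested by exact permutation. The members and lists were chosen with earlier results of these data known. Named genes were all members, up to 3 called genes per list in each direction with the largest age difference, 3 nearest genes per called member, and 8 fixed genes. Dysf, Nppb, Myl7, the uncalled cardiac genes and the uncalled fast light chains and troponins were named after their values were seen. Alternatives covered normalisation, centring, a filter on the dimmest 40%, thresholds, variance models, strain, the replicate block and leaving out each array. Averaging close arrays was added after seeing the data. Same-numbered arrays correlated between -0.28 and 0.20 in their deviations from their group means. The deviations of the 2 newborn arrays mirror each other, so these correlations cannot settle whether the numbers pair samples. The labels give no scan date or batch. Figures used matplotlib 3.10.9, and tables pandas 2.3.3 and numpy 2.4.6 under Python 3.11.15.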

Additional observations from a re-analysis of the deposited data

Results flagged for a closer look

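One value lay outside the others of its group. Probe set 1416551_at of Atp2a2 gave 8.57 in replicate 1 of 30-day skin, against 7.90 to 8.06 in the other 4 arrays of the group, a gap to the next array that was large for the range of 5 arrays by Dixon's test. The same array had the wide gap between 3' and 5' actin probe sets, 1.74 against 0.67 to 0.82. It was the only such value among 34 groups of arrays tested, and chance alone gives about 5% of groups. Without this array the age difference of the probe set was -0.15 (adjusted p = 0.576 by limma), also not called.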

How the results depend on the processing

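Over the member probe sets and partner pairs, 0 called values reversed direction in the alternatives run. Between 30-day and newborn skin, the 5 member probe sets called higher became 3 with strain as a covariate and 1 with the close arrays averaged, and 3 to 5 when 1 array was left out, the 3 being without newborn replicate 2. The 3 called lower became 2 to 3 when 1 array was left out. Leaving out a newborn array leaves 1, whose spread is then assumed to be that of the other groups. For 30-day skin against culture, those lower became 1 of 2 after a new quantile normalisation. For newborn skin against culture, those lower became 2 with strain as a covariate, against 1, and those higher ran from 6 to 8 when 1 array was left out.

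With the replicate number as a block, 4 member probe sets were called higher and 3 lower between the ages. Atp2a2 (1427250_at) gave 0.51 (adjusted p = 0.0524), and Actn3 in newborn skin against culture 1.0 (adjusted p = 0.095). The block changed no other call of a member. Same-numbered arrays of 30-day and newborn skin correlated at 0.05 and 0.08 in their deviations.

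Calls over all 22626 probe sets between the ages, 1074 higher and 1666 lower, became 691 and 1032 with the block, 2243 and 2910 with array weights, 474 and 811 at a threshold of 0.01, 528 and 3151 when centred on sarcomere genes, 95 and 186 with close arrays averaged, 390 and 737 without newborn replicate 1, and 290 and 548 without newborn replicate 2. With strain as a covariate they were 871 and 1047. For newborn skin against culture, 3337 higher and 3972 lower became 1839 and 1593 with close arrays averaged, 2424 and 2402 without newborn replicate 1, and 2345 and 2552 without newborn replicate 2. With 1 probe set per gene, 12393 tests gave 732 and 1220 calls for age, 2709 and 3280 for 30-day skin against culture and 2299 and 2223 for newborn skin against culture. Centring arrays on their median moved the median difference from culture to -0.12 in 30-day skin and -0.11 in newborn skin.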
